A study of Danio rerio with 30 samples.

Results

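The DNA replication genes are 48 genes whose products license, open, copy and finish the replication fork or supply its nucleotides, followed here in zebrafish eye tissue around the closure of the optic fissure. They were taken by symbol from the deposited table of 27731 genes, and each of the 48 symbols was found. The symbol rrm2 stands on 2 rows, so the genes fill 49 rows. A filter on low values kept 48 of these rows; the remaining one, dut, which encodes dUTPase, lay between 0 and 7.1 normalised counts in every library and was not tested.

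Replication origins are marked by the origin recognition complex, on which Cdc6 and Cdt1 load the ring of MCM2 to MCM7 proteins. Cdc45 and the GINS complex join this ring to make the active helicase, RPA coats the exposed single strands, and primase with DNA polymerase alpha starts each new strand. PCNA, a sliding clamp loaded by replication factor C, tethers the polymerases delta and epsilon, and flap endonuclease and DNA ligase join the lagging strand. In vertebrates many of these genes are transcribed under E2F control late in G1, and in the zebrafish retina they are known as markers of cycling progenitors, later restricted to the ciliary marginal zone.

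The optic fissure is a ventral gap in the optic cup through which cells and vessels pass and whose edges later fuse. The region around it (OF) was compared with control dorsal retina (DR) dissected from zebrafish at 32, 48 and 56 hours post fertilisation (hpf), which the submitters describe as before, during and after fusion. Each of the 6 groups had 5 biological replicates, giving 30 libraries of total RNA; the labels used here give no strain, genotype or number of pooled animals. OF tissue is also ventral, so fissure and ventral position cannot be told apart.

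Between 4.49 M and 12.32 M reads per library fell in genes, with a median of 9.75 M. Ventral eye genes (vax1, vax2, aldh1a3 and pax2a, summed) stood at 1469 to 3898 normalised counts in 14 OF libraries and at 7.9 to 257 in 14 DR libraries, whereas the OF library of replicate 5 at 48 hpf had 72.6 and its DR partner 1851. That pair thus goes against its labels. The pair of replicate 1 at 32 hpf had reads in 13854 (OF) and 11777 (DR) genes, the fewest of all libraries. Results that rest on either pair are given with and without both. In bulk tissue, fewer cells of a type and less RNA per cell cannot be told apart.

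From 32 to 56 hpf the replication genes fell together in both regions. In OF their summed level averaged 169933 ± 15795 normalised counts at 32 hpf (SD, n = 5), 56535 ± 22799 at 48 hpf and 38892 ± 12598 at 56 hpf, so that 22.9% of the early level was left. In DR it averaged 188215 ± 11556, 79799 ± 23062 and 64835 ± 14711, leaving 34.4%. Without pcna, the largest contributor of reads, 24.0% was left in OF and 35.5% in DR. As a share of all reads in genes, the members took 1.74% in OF and 1.90% in DR at 32 hpf, and 0.447% and 0.755% at 56 hpf.

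**Figure D1:**
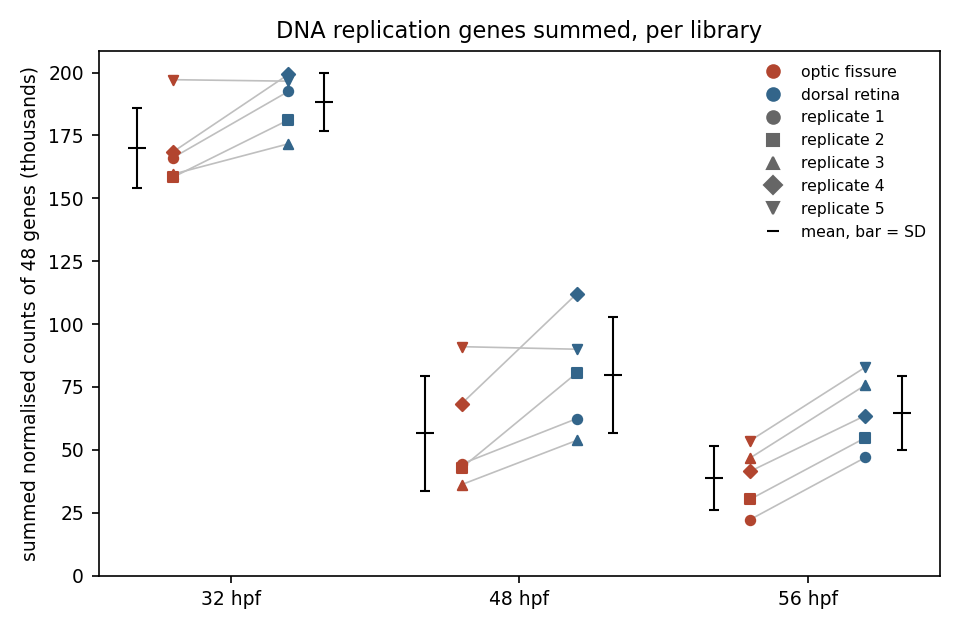
Summed normalised counts of the 48 DNA replication genes (vertical axis) in each of the 30 libraries, by time and region; grey lines join OF and DR libraries of one replicate number and bars show mean and SD. The 5 OF libraries at 56 hpf sit between 22285 and 53628, below every library of 32 hpf.

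A limma-trend test on log2(normalised count + 1), with Benjamini-Hochberg adjustment over 17360 genes and a call at adjusted p below 0.05, called 44 of 48 rows lower at 48 than at 32 hpf in OF, where 9.61% of all genes were called lower. At 56 against 32 hpf 45 rows were called lower in OF, against 12.5% of all genes. In DR, 44 rows were called lower at 48 hpf, against 6.39% of all genes, and 44 at 56 hpf, against 9.03%. No row was called higher. Without both doubted pairs the 4 counts were 46, 46, 45 and 46. In that fit 6702, 7838, 5171 and 6326 of the 17360 genes were called in either direction. The median log2 change of the rows was -1.61 and -2.16 in OF and -1.20 and -1.44 in DR, while the median over all genes was 0.38, 0.42, 0.35 and 0.46 in the same order.

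Groups seldom overlapped over this interval. All 5 OF libraries at 56 hpf lay below all 5 at 32 hpf for 46 of 48 rows, against 7.4% of all genes. In DR this held for 40 rows, against 5.39% of all genes. The DR rows that overlapped were cdc45, orc2, pole2, prim2, rfc2, rpa1 and both rows of rrm2. Apart from rrm2, each did so only through DR replicate 1 of 32 hpf, one of the doubted libraries. From 48 to 56 hpf, limma called none of the rows in OF, where 0.0115% of genes were called lower, and none in DR, where 0.00576% were. The medians were -0.50 in OF, with 12 rows at an unadjusted p below 0.05, and -0.26 in DR, with 0 such rows. Without both doubted pairs the medians were -0.35 in OF and -0.15 in DR, with 0 such rows in either region. For counts at an unadjusted p below 0.05, here and below, the share over all genes is not given. They are therefore not read as results about the members. With all libraries, edgeR and DESeq2 also called none in either region.

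**Figure D2:**
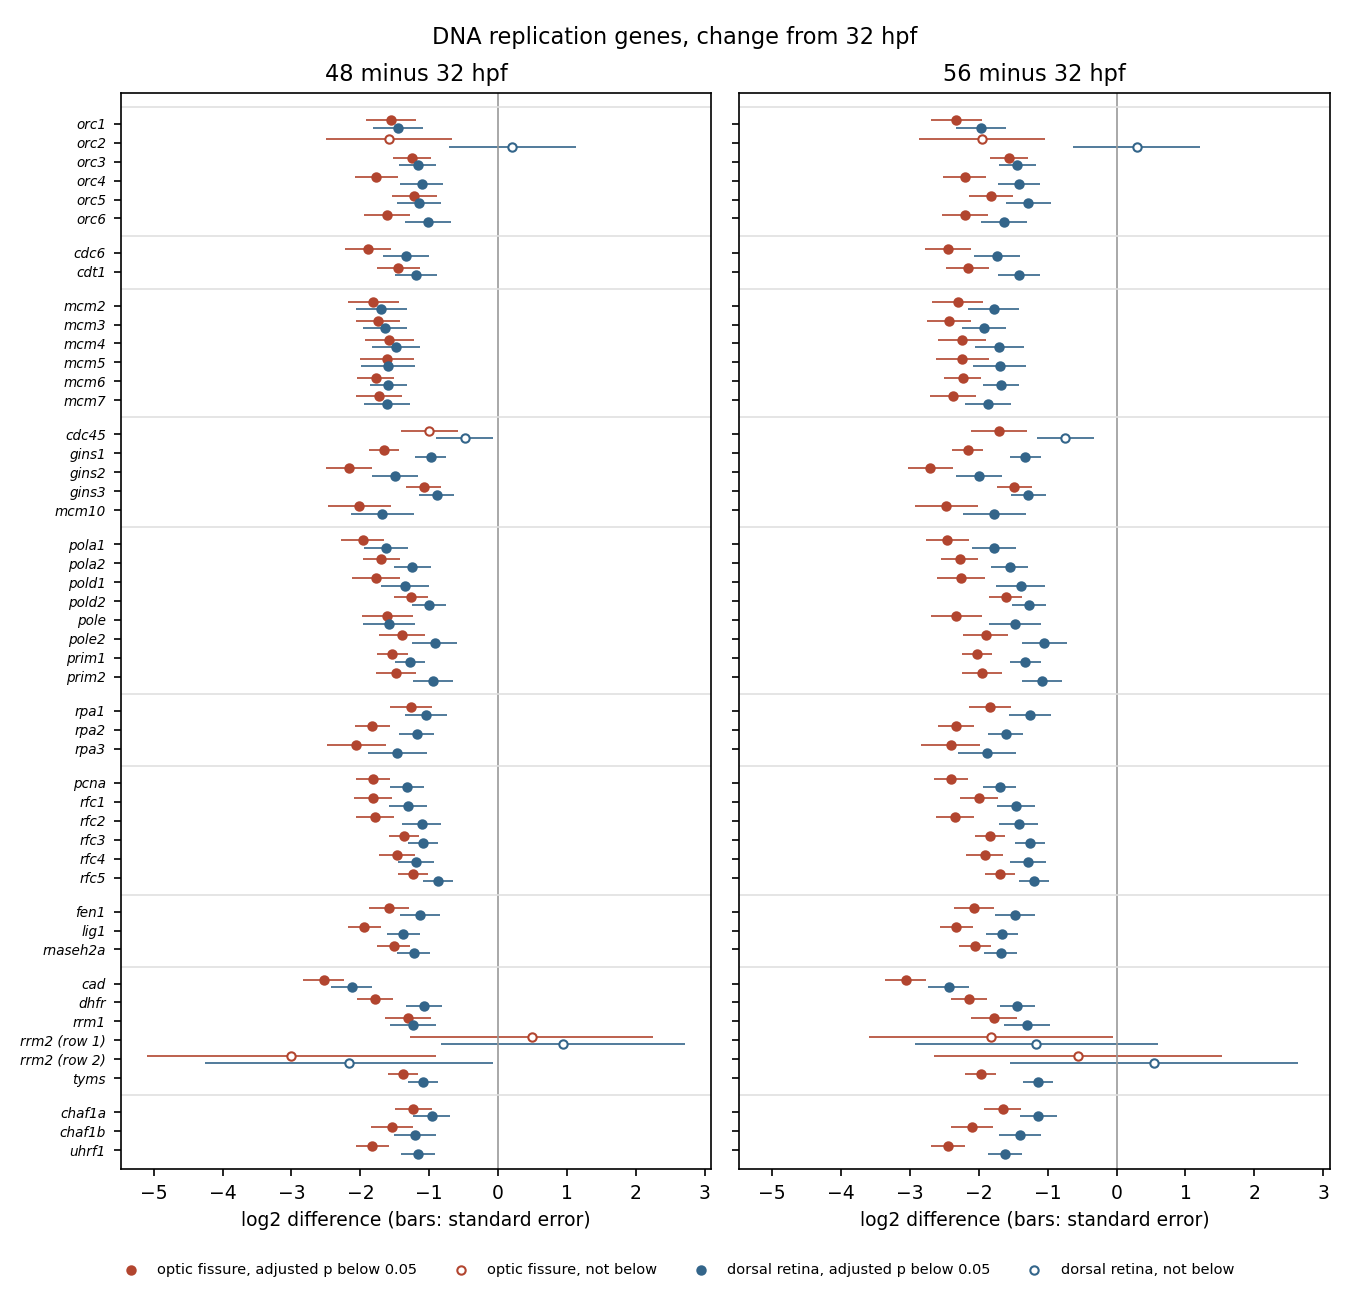
Log2 difference from 32 hpf at 48 hpf and at 56 hpf for each of the 48 tested rows, grouped by role, in OF and DR, with standard errors; filled points passed the adjusted threshold. Nearly all points lie left of 0, with OF further left than DR at 56 hpf, and the wide bars belong to orc2 and to the 2 rows of rrm2.

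Among the origin recognition genes, 5 of 6 fell in each of the 4 comparisons with 32 hpf, orc2 being the exception. For orc4 (ENSDARG00000101161), a subunit of the complex, the values here and below are normalised counts in the order of replicates 1 to 5. Counts of orc4 in OF were 2137, 3161, 2158, 3072 and 3240.2 at 32 hpf, 463, 766, 549.6, 1062 and 1514 at 48 hpf, and 290.1, 545, 775, 653 and 872 at 56 hpf. Its DR counts were 1409, 3188, 2315, 3866 and 3388 at 32 hpf, 812, 1495, 939, 1782 and 1417 at 48 hpf, and 733, 1079, 1245, 870.2 and 1176 at 56 hpf. Both later OF groups lay wholly below 32 hpf, as did the 56 hpf group in DR. The DR group of 48 hpf overlapped 32 hpf only through replicate 1 of 32 hpf, at 1409, one of the doubted libraries. The remaining DR libraries of 32 hpf were at 2315 to 3866. The change from 32 to 56 hpf was -2.20 (SE 0.31, adjusted p = 1.21e-06) in OF and -1.42 (SE 0.31, adjusted p = 0.000592) in DR.

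The exception, orc2, had no read in DR replicate 1 of 32 hpf and stood at 246 to 324 in the other 4 libraries of that group. Its change from 32 to 56 hpf was 0.29 in DR (adjusted p = 0.831) and -1.96 in OF (SE 0.92, adjusted p = 0.0882). Without both doubted pairs these became -1.35 (SE 0.33, adjusted p = 0.00199) and -2.10 (SE 0.33, adjusted p = 8.69e-06).

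Both helicase loading genes fell in all 4 comparisons. The loader cdc6 (ENSDARG00000009942) measured 1466, 597, 983, 928 and 908 at 32 hpf, 184, 177, 172, 402 and 459 at 48 hpf, and 100.2, 119.6, 269, 218 and 205 at 56 hpf in OF. In DR cdc6 measured 1886, 653, 900.3, 1305 and 1014 at 32 hpf, 326, 413, 253, 760.0 and 548 at 48 hpf, and 229, 369, 319, 339 and 389.9 at 56 hpf. All later OF values lay below the lowest value at 32 hpf, which was 597. At 56 hpf cdc6 was down by a log2 difference of -2.45 (SE 0.34, adjusted p = 7.73e-07) in OF and -1.73 (SE 0.34, adjusted p = 0.000139) in DR. Its partner cdt1 changed by -2.16 and -1.42.

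The 6 genes of the MCM ring all fell in all 4 comparisons. From 32 to 56 hpf their log2 changes spanned only -2.43 to -2.23 in OF and -1.92 to -1.68 in DR. The OF libraries held mcm7 (ENSDARG00000101180) at 11826, 6626, 7882, 6568 and 10239 at 32 hpf, 1889.8, 2038, 1728, 3320.4 and 4620.5 at 48 hpf, and 835, 1388, 1968, 1512 and 3175 at 56 hpf. In the DR libraries mcm7 stood at 16625, 10623, 7438, 7919 and 9247 at 32 hpf, 2839, 3178, 1792, 5275 and 4230.1 at 48 hpf, and 1870.2, 1785, 3029, 3234 and 4494 at 56 hpf. Both regions lost all overlap with 32 hpf, and at 56 hpf mcm7 was 5.20-fold lower in OF and 3.66-fold lower in DR on the log2(value + 1) scale.

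The helicase subunit mcm6 (ENSDARG00000057683) measured 4224, 2798, 4500.1, 3239 and 5470.3 at 32 hpf, 804, 994, 828, 1385 and 2143 at 48 hpf, and 594, 712, 1016, 742 and 1297 at 56 hpf in OF. DR values of mcm6 were 4848, 4577, 4132, 4114 and 4562 at 32 hpf, 1327, 1435, 789, 2133 and 2144 at 48 hpf, and 1082, 1072, 1613, 1458 and 1881 at 56 hpf. At 32 hpf the DR values were within 4114 to 4848, and none of the later libraries of either region reached 2798, the lowest OF value of that time. The fall to 56 hpf was 4.69-fold in OF (adjusted p = 1.04e-07) and 3.20-fold in DR (adjusted p = 1.13e-05).

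Of the 5 helicase activation genes, 4 fell in every comparison with 32 hpf. The GINS subunit gins2 (ENSDARG00000002304) measured 3365, 2064, 1211, 1977 and 1339 at 32 hpf, 363, 318, 331, 539 and 597 at 48 hpf, and 154, 175, 489.5, 458 and 311 at 56 hpf in OF. Its DR libraries gave 3775, 1450.4, 1366, 2471 and 1474 at 32 hpf, 537, 759, 839, 773 and 562 at 48 hpf, and 314, 679.6, 725, 380.3 and 456 at 56 hpf. With all libraries, the change of gins2 by 56 hpf was -2.70 (SE 0.33, adjusted p = 1.51e-07) in OF, below that of every other member except cad. This rank leans on replicate 1 of 32 hpf, a doubted library at 3365 against 1211 to 2064 in the rest of its group. The rank is not given without it. In DR the change was -1.996 (SE 0.33, adjusted p = 1.97e-05). A second GINS subunit, gins1 (ENSDARG00000007624), measured 968, 635, 585, 723 and 665 at 32 hpf, 186, 185, 163, 290.5 and 329.7 at 48 hpf, and 118, 122, 175, 206 and 182 at 56 hpf in OF. For gins1 in DR the counts were 516, 521, 587, 853 and 699 at 32 hpf, 259, 367, 256, 437 and 291 at 48 hpf, and 248, 276, 272, 193 and 264 at 56 hpf. No later library of gins1 reached any of its 32 hpf values in the same region.

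The helicase factor cdc45 was called lower only at 56 hpf in OF, by -1.71 (SE 0.41, adjusted p = 0.00121). At 32 hpf it measured 99.95 in DR replicate 1, one of the doubted libraries, and 518 to 768 in the other 4, while OF ran from 318 to 741. Without both doubted pairs it passed in all 4 comparisons, with -1.90 (adjusted p = 1.23e-05) in OF and -1.28 (adjusted p = 0.00163) in DR at 56 hpf.

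All 8 polymerase and primase genes fell in all 4 comparisons, with changes by 56 hpf of -2.45 to -1.61 in OF and -1.77 to -1.05 in DR. Among them pole2 at 48 hpf in DR lost its call in 10 of the alternatives. The polymerase alpha subunit pola2 (ENSDARG00000015070) gave 1818, 1302, 1725, 1541 and 2188 at 32 hpf, 359.6, 407, 381, 656 and 1049.8 at 48 hpf, and 215, 300.0, 522, 278 and 548 at 56 hpf in OF. Dorsal pola2 counts were 1982, 1783, 1799.6, 1797 and 2021 at 32 hpf, 533, 741, 689, 1117 and 1006 at 48 hpf, and 481, 508, 779, 714 and 789.8 at 56 hpf. Both later groups lay below 32 hpf in either region, and the fall to 56 hpf was 4.84-fold in OF and 2.93-fold in DR.

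The catalytic primase subunit prim1 (ENSDARG00000040163) gave 715, 743, 832, 859 and 1048 at 32 hpf, 258, 267, 214, 383 and 342 at 48 hpf, and 201, 143, 234, 213 and 247 at 56 hpf in OF. Dorsal prim1 counts were 1353, 798, 815, 910.2 and 1057 at 32 hpf, 282, 412, 340.0, 709 and 359.8 at 48 hpf, and 451, 277, 369.5, 407 and 455 at 56 hpf. In 7 of 48 rows, against 0.726% of all genes, every OF library at 56 hpf was below every DR library of that time. For prim1, 1 of these rows, the values were 143 to 247 in OF and 277 to 455 in DR. The change from 32 to 56 hpf was -2.02 (SE 0.22, adjusted p = 1.88e-08) in OF and -1.32 (SE 0.22, adjusted p = 1.92e-05) in DR.

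The 3 RPA genes fell in all 4 comparisons. The small subunit rpa3 (ENSDARG00000002613) measured 17536, 5253, 2300.3, 5261 and 3395 at 32 hpf, 1242, 916, 857, 1657 and 1856 at 48 hpf, and 694, 701, 1344, 1306 and 1064 at 56 hpf in OF. DR libraries gave rpa3 at 22842, 3437, 3097, 6358 and 4345 at 32 hpf, 1851, 2197, 2572, 2388 and 1686 at 48 hpf, and 1243, 2146, 1925, 1241 and 1558 at 56 hpf. At 32 hpf both libraries of replicate 1, one of the doubted pairs, stood far above the other 4 of their group. The change of rpa3 by 56 hpf was -2.40 in OF and -1.88 in DR with all libraries, and -1.97 (adjusted p = 9.64e-07) and -1.39 (adjusted p = 0.000144) without both doubted pairs. The middle subunit rpa2 (ENSDARG00000037188) showed no such pair, with OF counts of 4459.6, 5796, 3005, 4827 and 5894 at 32 hpf, 1132, 1090.4, 767, 1727 and 2412 at 48 hpf, and 621, 764, 1003, 1219 and 1189 at 56 hpf. For rpa2 the DR counts were 3958, 4979, 3449, 5843 and 5885 at 32 hpf, 1585, 2283, 1478, 2905 and 2475 at 48 hpf, and 1207, 1644, 1588, 1534 and 1834 at 56 hpf. At 56 hpf rpa2 was 5.02-fold lower than at 32 hpf in OF and 3.05-fold lower in DR.

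The clamp and its loader fell in full, 6 of 6 genes in each of the 4 comparisons. The clamp pcna (ENSDARG00000054155) measured 38404, 46891, 34551, 44599 and 48249.7 at 32 hpf, 10201, 9579.6, 7535, 16985 and 19906 at 48 hpf, and 4772, 6892, 9954, 9427 and 10491 at 56 hpf in OF. Dorsal pcna stood at 45637, 47348, 40105, 54196 and 50462 at 32 hpf, 14679, 21454, 13845, 28601 and 19533 at 48 hpf, and 10792, 14766, 17863, 12833 and 18052 at 56 hpf. At 32 hpf the regions overlapped, though pcna was already lower in OF in 5 of 5 pairs. At 56 hpf the highest OF value, 10491, was below the lowest DR value, 10792. The fall from 32 to 56 hpf was 5.29-fold in OF (log2 -2.40, SE 0.24, adjusted p = 5.64e-09) and 3.25-fold in DR (log2 -1.70, SE 0.24, adjusted p = 2.14e-06). The 5 clamp loader genes rfc1 to rfc5 changed by -2.34 to -1.70 in OF and by -1.46 to -1.20 in DR.

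**Figure D3:**
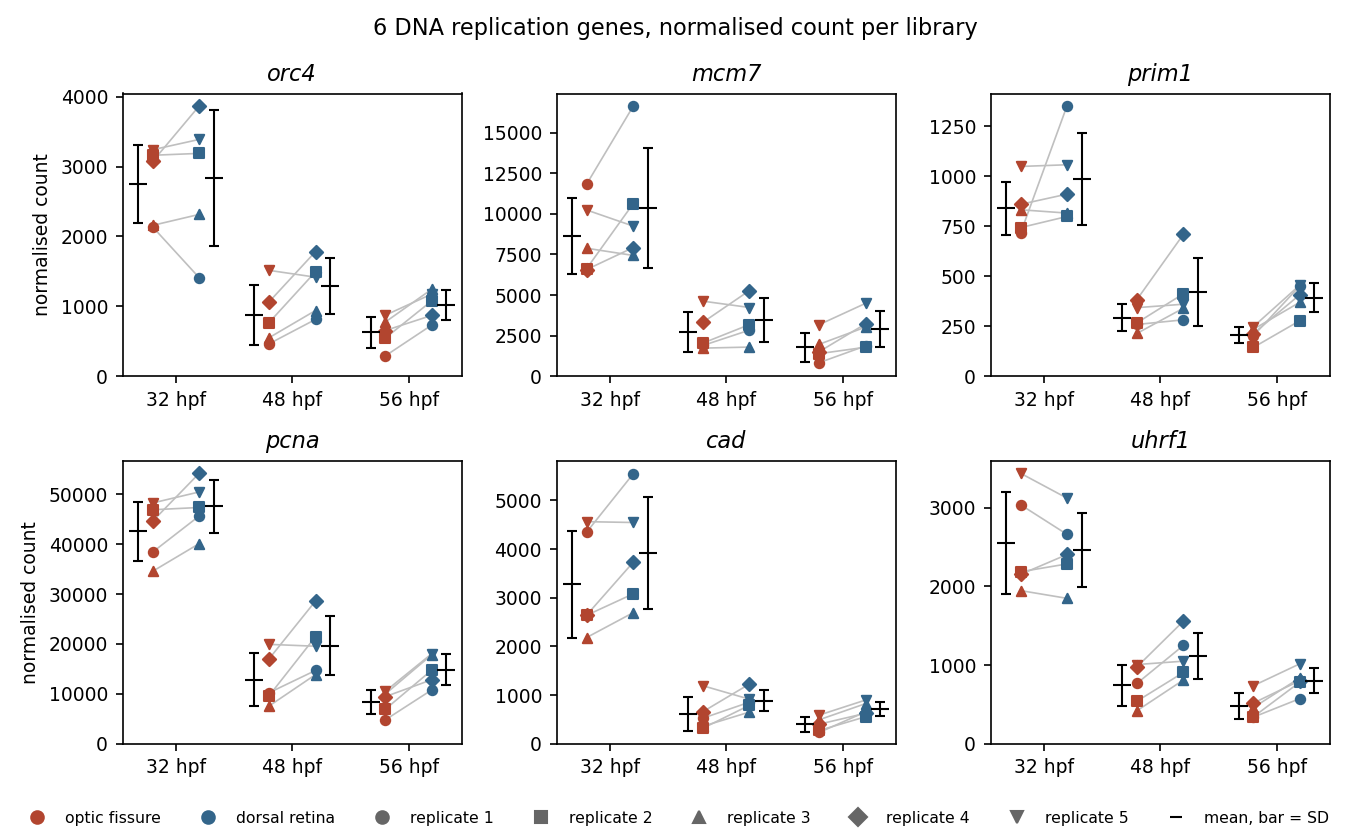
Normalised counts per library of orc4, mcm7, prim1, pcna, cad and uhrf1 by time and region; grey lines join the OF and DR libraries of one replicate number, and bars show mean and SD. At 56 hpf the OF library is the lower one in each of the 5 pairs for all 6 genes.

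Lagging strand joining followed the same course, with 3 of 3 genes lower in each comparison. The flap endonuclease fen1 (ENSDARG00000011404) gave 2861, 4589, 4431, 5002 and 6970.0 at 32 hpf, 1276, 1148, 951, 2050.5 and 2895 at 48 hpf, and 671, 876, 1301, 1437 and 1390.1 at 56 hpf in OF. Dorsal fen1 gave 3038, 5019, 5257, 6238 and 6531 at 32 hpf, 1821, 2413, 1469, 3314 and 2942 at 48 hpf, and 1343, 1576, 2185, 1822 and 2331 at 56 hpf. Its 48 hpf groups still touched 32 hpf through the OF library of replicate 5 and the DR library of replicate 4. Both exceeded only replicate 1 of 32 hpf, from a doubted pair, at 2861 in OF and 3038 in DR. The OF library of replicate 5 is also from a doubted pair. The remaining 32 hpf libraries were at 4431 or more in OF and 5019 or more in DR. DNA ligase gene lig1 (ENSDARG00000060041) gave 5327, 4898, 3384, 4330.1 and 5779 at 32 hpf, 1089, 894, 845, 1365 and 2311 at 48 hpf, and 639, 689, 1138, 1088 and 1267 at 56 hpf in OF. Dorsal lig1 gave 5307, 4618, 3642, 5538 and 5359.6 at 32 hpf, 1463, 1666, 1792, 2288 and 2225 at 48 hpf, and 1097, 1360.2, 2023, 1381 and 1992 at 56 hpf. By 56 hpf lig1 was 5.02-fold lower in OF and 3.17-fold lower in DR.

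Of the 6 nucleotide supply rows, 4 fell in all 4 comparisons with 32 hpf. The pyrimidine synthesis gene cad (ENSDARG00000041895) fell furthest of all called members in OF, with counts of 4347, 2638, 2181, 2642 and 4563 at 32 hpf, 524, 318, 358, 658 and 1190.2 at 48 hpf, and 232, 272, 492, 401 and 588 at 56 hpf. Dorsal cad counts were 5544, 3079, 2692, 3727 and 4546 at 32 hpf, 853, 789, 649.8, 1226 and 914 at 48 hpf, and 656, 555, 825, 625 and 898 at 56 hpf. By 56 hpf cad was 8.36-fold lower in OF (log2 -3.06, SE 0.30, adjusted p = 2.89e-09) and 5.40-fold lower in DR (log2 -2.43, SE 0.30, adjusted p = 1.62e-07). Thymidylate synthase, tyms (ENSDARG00000042894), measured 1325, 1384, 1031, 1564 and 1289.9 at 32 hpf, 465, 411, 365, 624 and 721 at 48 hpf, and 187, 273, 479, 429.8 and 384 at 56 hpf in OF. For tyms in DR the values were 1633, 1351, 1198, 1536 and 1566 at 32 hpf, 498, 631, 679.9, 914 and 734 at 48 hpf, and 501, 718, 814, 552 and 756 at 56 hpf. Its fall by 56 hpf was 3.93-fold in OF and 2.20-fold in DR, and dhfr and rrm1 fell in all 4 comparisons as well.

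The gene for the small subunit of ribonucleotide reductase, rrm2, was split over its 2 rows (ENSDARG00000020711 and ENSDARG00000078069) in a way that followed the pair, not the region or the time. In 9 of 15 OF and DR pairs at least 99.3% of its counts lay in the first row. Replicate 5 at 32 hpf and replicate 2 at 56 hpf had at most 0.3% there, in both libraries. The other 4 pairs held 52.4 to 57.3% in the first row. Partners differed by at most 2.2 percentage points. The value of either row alone is uncertain, and why the split followed the pair was not tested.

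**Figure D4:**
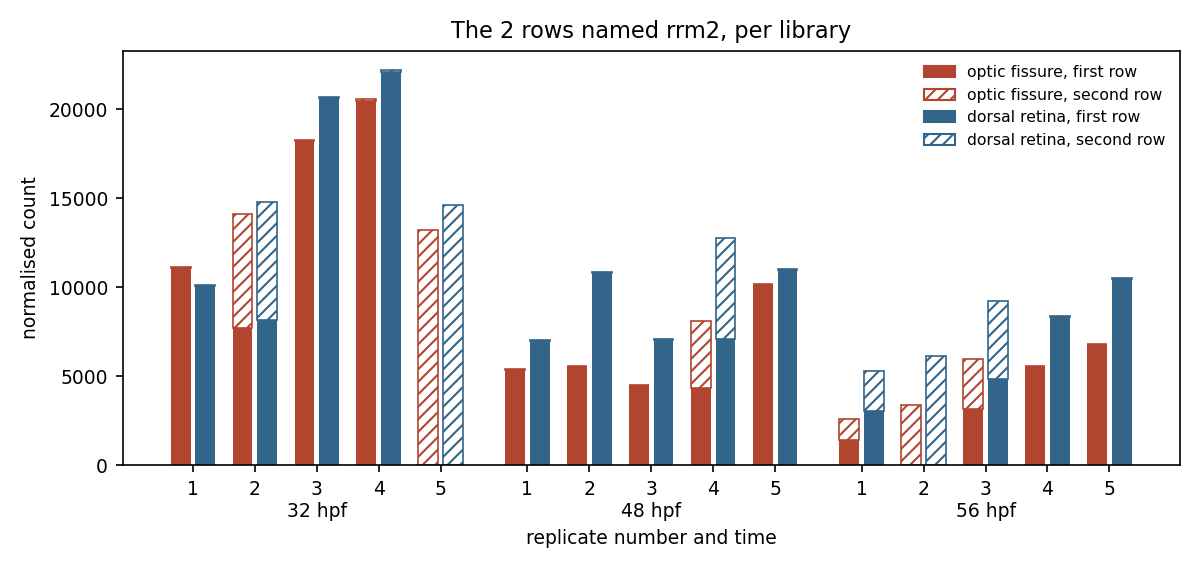
Normalised counts in the first row (filled) and the second row (hatched) named rrm2 for each library, with the OF and DR libraries of one replicate number side by side. The 15 pairs share their pattern: 9 in the first row, 2 in the second and 4 in both.

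Neither row of rrm2 passed in any of the 4 comparisons with 32 hpf. Their sum, formed after this split had been seen, was 11139, 14091, 18258, 20566 and 13229 in OF at 32 hpf and 2609, 3383, 5993, 5600.0 and 6830.2 at 56 hpf. In DR it was 10105, 14801, 20706, 22172 and 14599, then 5275, 6163, 9225 and 8395 for replicates 1 to 4 and 10508 for replicate 5. The groups of 32 and 56 hpf did not overlap in OF. In DR they did only through replicate 1 of 32 hpf, at 10105, one of the doubted libraries. The remaining DR libraries of 32 hpf were at 14599 to 22172. Summed, rrm2 changed by -1.72 (SE 0.27, adjusted p = 7.77e-06) in OF and -1.05 (SE 0.27, adjusted p = 0.00326) in DR.

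The 3 genes for chromatin assembly and methylation maintenance fell in all 4 comparisons. The large subunit gene of chromatin assembly factor 1, chaf1a (ENSDARG00000062152), gave 2856, 2919.5, 2862, 3722 and 4209 at 32 hpf, 1244, 1082, 942, 1659.8 and 2473 at 48 hpf, and 618, 801, 1484, 903 and 1816 at 56 hpf in OF. Dorsal chaf1a gave 3635, 3438, 3065, 3893 and 3881 at 32 hpf, 1411, 1677, 1442, 2459.9 and 2466 at 48 hpf, and 1074, 1203, 2144, 1783 and 2282 at 56 hpf. By 56 hpf it was 3.15-fold lower in OF and 2.20-fold lower in DR. The gene uhrf1 (ENSDARG00000103409), whose product directs the maintenance methyltransferase to new DNA, measured 3039.7, 2187, 1948, 2154 and 3440.0 at 32 hpf, 766, 541, 419, 976 and 1007 at 48 hpf, and 337, 339.9, 458, 516 and 736 at 56 hpf in OF. For uhrf1 in DR the counts were 2662, 2287, 1849, 2407 and 3123 at 32 hpf, 1251, 906, 811, 1559.8 and 1049.6 at 48 hpf, and 573, 783, 837, 801 and 1016 at 56 hpf. It fell 5.44-fold in OF (adjusted p = 4.30e-09) and 3.08-fold in DR (adjusted p = 4.50e-06).

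Comparing the regions asks whether the fissure differs from control retina at each stage. At 32 hpf no replication gene passed the test between them. The OF sum was 0.863, 0.874, 0.93, 0.845 and 1.003 times the DR sum in pairs 1 to 5. Limma called 0 of 48 rows lower in OF, where 0.167% of all genes were called lower, and 0 rows had an unadjusted p below 0.05; edgeR and DESeq2 called none. The differences were small and leaned to one side: their median was -0.14, with 37 of 48 rows below 0, and without both doubted pairs it was -0.13, with 47 rows below 0 and a range of -0.33 to 0.05. With OF and DR libraries of one replicate number treated as a pair, 15 pairs gave 0 calls against 0.409% of genes, and 13 pairs, without the doubted ones, gave 0 against 0.449%.

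At 48 hpf all 48 rows were lower in OF on average, with a median of -0.47, but limma without pairs called 0 of them, as it called 0.0% of all genes lower. At an unadjusted p below 0.05 there were 18 rows, and edgeR and DESeq2 called none. With 15 pairs as a block 3 rows were lower (pcna, uhrf1 and the first row of rrm2), against 0.0288% of genes, and with 13 pairs 26 rows were lower, against 1.46%. The value of an rrm2 row alone is uncertain, and with its rows summed the 13 pairs gave 25 calls. The summed level in OF was 0.711, 0.531, 0.673 and 0.609 times that in DR in pairs 1 to 4. It was 1.01 times in pair 5, whose markers go against its labels. In pair 5, 21 of 48 rows were lower in OF, with a median log2 ratio of 0.03. Exchanging its labels would thus not give it a clear difference either. The 13 pairs leave out pair 5, the single pair of that time without a lower OF sum.

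At 56 hpf the lower level in OF was seen in every pair. The OF sum was 0.474, 0.553, 0.617, 0.651 and 0.647 times the DR sum. At this time 42 of 48 rows were lower in OF in 5 of 5 pairs, against 4 rows at 32 hpf and 16 at 48 hpf. In pairs 1 to 4 of 48 hpf, 36 rows were lower in OF throughout. The share over all genes was not computed for these counts. Without pairs the median difference was -0.76 and limma called 1 row, tyms, against 0.0518% of all genes, while 39 rows had an unadjusted p below 0.05. For tyms the OF values of 187 to 479 lay wholly below the DR values of 501 to 814 (log2 -0.98, SE 0.22, adjusted p = 0.0493). Of the 48 rows, 7 including tyms were separated in this way, against 0.726% of all genes. The tyms call was lost in 14 of the alternatives. Among them was the removal of OF replicate 1, 2, 4 or 5, with adjusted p of 0.251, 0.207, 0.054 and 0.0575 in turn. Removing DR replicate 2, 3, 4 or 5 gave adjusted p of 0.107, 0.208, 0.0798 and 0.198.

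Treating libraries of one number as pairs raised the calls at 56 hpf to 35 of 48 rows with 15 pairs, against 1.35% of all genes, and to 42 with 13 pairs, against 2.32%. Both fits take the difference at 56 hpf from the same 5 pairs of that time, with a median of -0.76 in either. Pairs of other times enter only the shared estimate of the spread. In the fit with 13 pairs the log2 difference was -0.87 for pcna (SE 0.11, adjusted p = 0.000196), -0.92 for prim1 (SE 0.12, adjusted p = 0.000227) and -0.98 for tyms (SE 0.14, adjusted p = 0.000555). The polymerase epsilon gene pole differed most, by -1.13. The 6 rows not called were orc1, orc3, gins2, gins3, mcm10 and rpa3, with differences of -0.76 to -0.50.

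**Figure D5:**
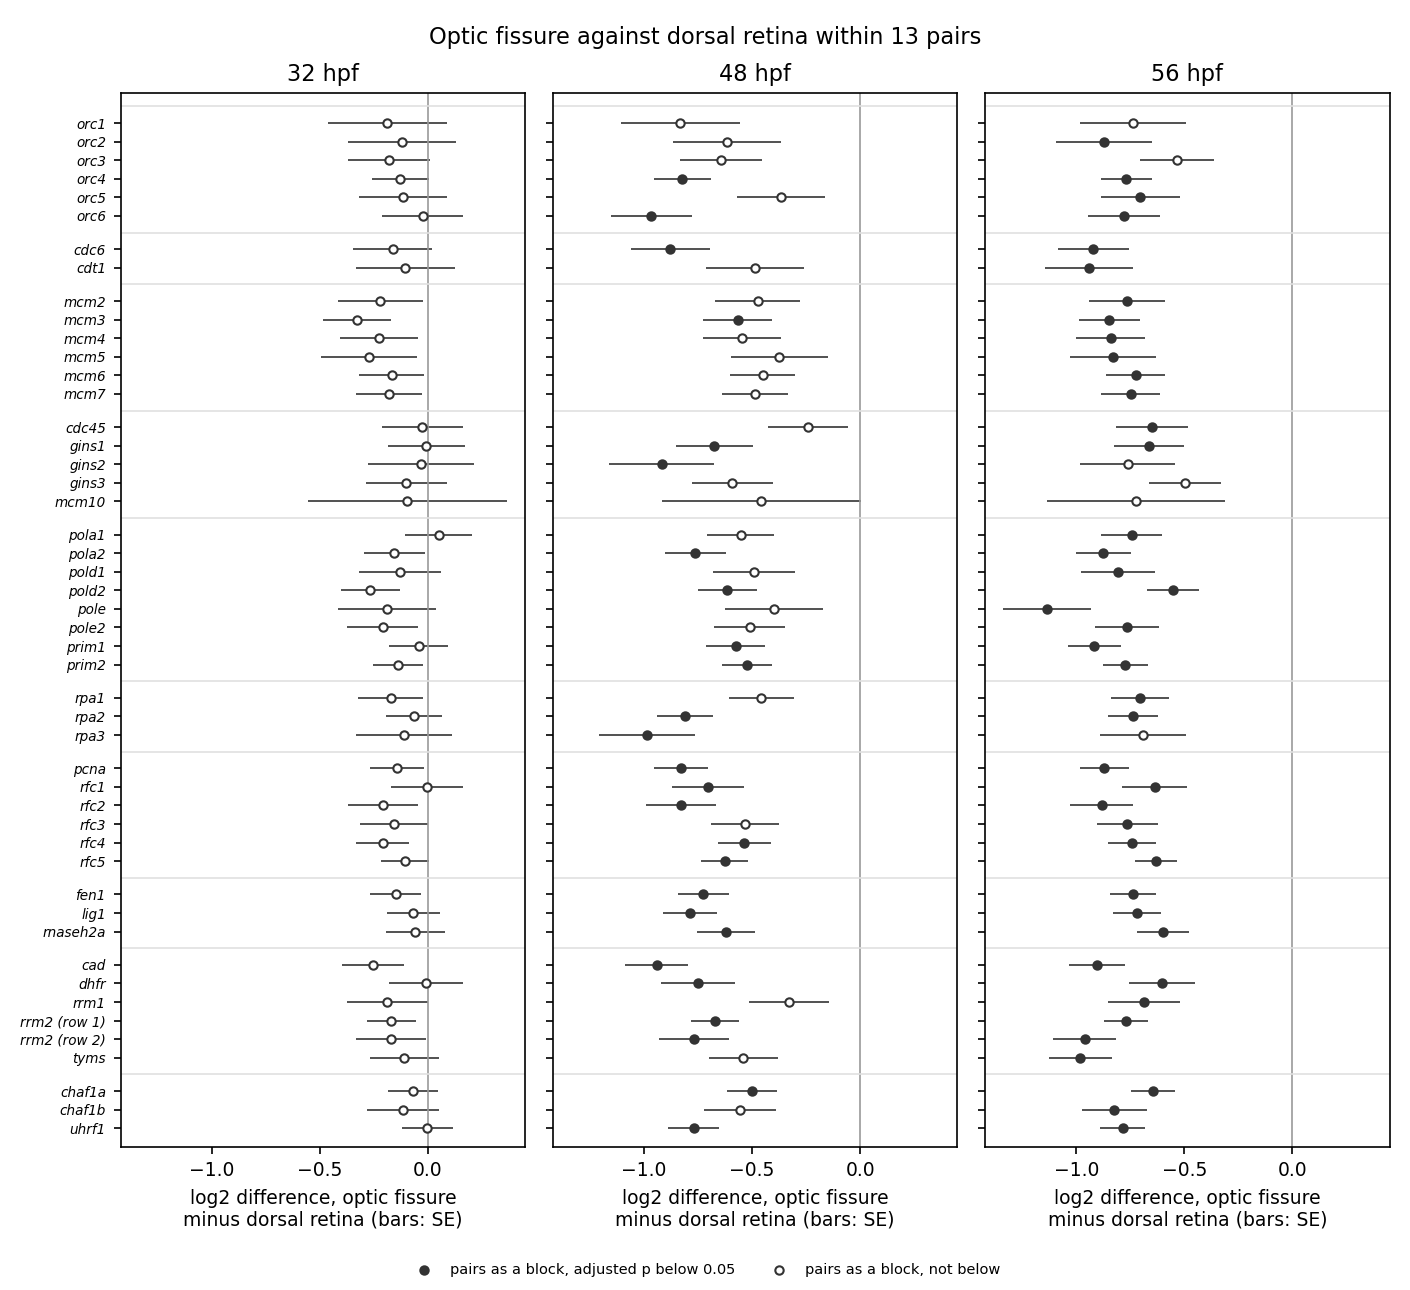
Log2 difference between OF and DR at 32, 48 and 56 hpf for each of the 48 tested rows, grouped by role, fitted with 13 pairs as a block and drawn with standard errors. The difference at each time rests on the pairs of that time. Filled points passed the adjusted threshold. At 32 hpf 47 of 48 points lie slightly below 0, between -0.33 and 0.05 over all rows, with 0 filled, and 26 and 42 are filled at 48 and 56 hpf.

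By role, the 13 pairs at 48 hpf gave calls for 3 of 3 lagging strand genes, 5 of 6 clamp and clamp loader genes, 4 of 6 nucleotide supply rows and 4 of 8 polymerase and primase genes. Of the MCM ring only mcm3 passed at that time, with differences of the 6 genes between -0.57 and -0.37. At 56 hpf all 6 passed, between -0.85 and -0.73. At 56 hpf calls were made for 8 of 8 polymerase and primase genes, 6 of 6 clamp and loader genes, 6 of 6 nucleotide supply rows and both helicase loading genes. They were also made for 4 of 6 origin recognition and 2 of 5 helicase activation genes. Over all genes, 1.46% were called lower at 48 hpf and 2.32% at 56 hpf in this fit. Whether the roles differ from each other was not tested at either time. The nucleotide supply rows include the 2 rows of rrm2, whose single values are uncertain. Summed, rrm2 differed by -0.66 (limma adjusted p = 0.00156) at 48 hpf and -0.74 (limma adjusted p = 0.00016) at 56 hpf within 13 pairs.

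The difference between regions was itself compared over time. Without pairs no row was called in the change of the OF minus DR difference from 32 to 48 hpf or from 32 to 56 hpf, as 0.0% of all genes were called lower in either, with 1 and 7 rows at an unadjusted p below 0.05. Neither edgeR nor DESeq2 called any. The medians were -0.35 and -0.66. With 15 pairs as a block, 0 rows passed from 32 to 56 hpf, against 0.0173% of genes, with the lowest adjusted p at 0.0904 and 35 rows at an unadjusted p below 0.05. Within 13 pairs, 2 rows passed over that interval, against 0.179% of genes: prim1 at -0.87 (SE 0.18, adjusted p = 0.0397) and uhrf1 at -0.78 (SE 0.16, adjusted p = 0.0318). From 32 to 48 hpf the 13 pairs gave none, with the lowest adjusted p at 0.0528 for uhrf1 and 24 rows at an unadjusted p below 0.05. The unadjusted counts have no share over all genes beside them and do not show a change of the difference.

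Other genes of the cell cycle were read from lists chosen with earlier results of these data known. Of 38 further replication genes, 37 fell from 32 to 56 hpf in OF and 34 in DR, with medians of -1.98 and -1.32. Over all genes, 12.5% were called lower in OF and 9.03% in DR. Examples are the RNase H2 subunit gene rnaseh2b, at 1983 ± 363 normalised counts in OF at 32 hpf and 373 ± 107 at 56 hpf, the histone chaperone gene asf1ba, at 2803 ± 361 and 646 ± 227, and the maintenance methyltransferase gene dnmt1, at 1844 ± 330 and 408 ± 133 (SD, n = 5). The histone mRNA binding gene slbp went from 4480 ± 811 to 1140 ± 286.

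A single gene of that list rose, and it is named here after its values were seen: pold4, an accessory subunit of polymerase delta. It averaged 337 ± 146.5 in OF and 312 ± 172 in DR at 32 hpf, and 885 ± 231 and 751 ± 204 at 56 hpf. The change was 1.48 (SE 0.35, adjusted p = 0.000892) in OF and 1.39 (SE 0.35, adjusted p = 0.00224) in DR. The catalytic subunit gene pold1 and the subunit gene pold2, both members, fell, with log2 changes of -2.25 and -1.61 in OF.

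Among 30 regulators of the G1/S transition 22 fell in OF and 20 in DR by 56 hpf, against 12.5% and 9.03% of all genes. Cyclin D1, ccnd1, dropped from 16303 ± 2274 to 3943 ± 1327 in OF and from 18369 ± 3478 to 6128.5 ± 1395.5 in DR. The kinase gene cdk6 and the transcription factor gene e2f3 changed by -2.57 and -2.06 in OF. The pocket protein gene rbl2 rose, from 2.6 ± 5.3 to 127 ± 44.8 in OF and from 1.9 ± 1.8 to 79.9 ± 47.6 in DR.

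Of 11 cell cycle inhibitor genes, 4 rose and 3 fell from 32 to 56 hpf in each region. Over all genes, 29.7% rose in OF and 26.7% in DR, and 12.5% and 9.03% were called lower. The 4 that rose are close to the share of all genes, and with 11 genes neither count is read as a result about inhibitors. Those that rose were gadd45ga, btg1, cdkn1ba and cdkn1bb, the last of which encodes a p27-type inhibitor of cyclin-dependent kinases and went from 552 ± 154 to 1200 ± 120 in OF and from 350 ± 118 to 956 ± 207 in DR. The growth arrest gene gadd45gb.1 fell, by -1.34 in OF and -0.68 in DR.

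Of 35 mitosis genes tested, 32 were called lower at 56 hpf in OF and 20 in DR, with medians of -1.14 and -0.72. Over all genes, 12.5% and 9.03% were called lower. At 48 hpf 18 and 5 mitosis genes were called lower in OF and DR, against 9.61% and 6.39% of all genes. The proliferation marker mki67 went from 9801 ± 1387 to 3896 ± 1513 in OF and from 9790 ± 1195 to 5260 ± 1456 in DR. Whether replication and mitosis genes differ in their change was not tested. Within 13 pairs, 18 mitosis genes, 24 further replication genes, 16 G1/S regulators and 0 inhibitors were lower in OF at 56 hpf, against 2.32% of all genes. At 48 hpf these counts were 1, 17, 8 and 0, against 1.46%, and the single mitosis gene is close to that share.

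Marker genes of cell types did not all move in the same way. The 16 markers of differentiating retinal neurons summed to 2469 to 11384 normalised counts in OF and 3126 to 10314 in DR at 32 hpf, and to 31214 to 38572 and 21878 to 30103 at 56 hpf. At 56 hpf all OF libraries were thus above all DR libraries in neuron markers, and the 12 photoreceptor markers summed to 24620 to 78832 in OF against 11038 to 20012 in DR. All genes of both lists had reads at 56 hpf. The 8 pigment epithelium markers summed to 8598 to 15950 in OF and 15356 to 23531 in DR at 32 hpf. At 56 hpf they summed to 32285 to 45645 and 32386 to 48359, so the regions overlapped. The 15 markers of retinal progenitors stayed within 26233 to 31799 in OF at 32 hpf and 29693 to 32934 at 56 hpf, and within 23655 to 29249 and 26570 to 29554 in DR.

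At 48 hpf the OF libraries of replicates 4 and 5 had the highest replication sums, 68302 and 91025 against 36177 to 44386 in the other 3. The same libraries had the lowest neuron sums of their group, 27305 and 17688 against 32403 to 36892. They also had the lowest photoreceptor sums, 14903 and 8970 against 28051 to 53464. The library of replicate 5 is from the doubted pair whose markers go against its labels, so it may not stand for OF. Without it, replicate 4 had the highest replication sum and the lowest neuron and photoreceptor sums. At 56 hpf replicates 1 and 2 had the lowest replication sums, 22285 and 30326 in OF and 47005 and 54836 in DR. The others were at 41465 to 53628 and 63649 to 82911. Replicates 1 and 2 also had the highest sums of periocular mesenchyme and neural crest markers. These were 2626 and 2784 in OF against 291 to 306, and 1504 and 1613 in DR against 190.5 to 295. The part of cell composition in the replication values was not tested at either time. Erythrocyte markers ran from 0.8 to 57944 over the 32 hpf libraries, and ribosomal protein genes took 5.63 to 19.5% of reads at 32 hpf and 4.59 to 8.93% later.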

How the data were processed

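RNA was extracted from dissected zebrafish retinal regions and made into low-input SMARTer libraries, per the labels' protocols. Build GRCz10, the aligner STAR 2.4.0, the counter HTSeq and the tools DESeq2, Picard and Trim Galore were used per the submitters' processing notes, which give neither order nor settings; strand handling is not given in the sources used here. The deposited values are signal in the form of normalised counts per gene: over all libraries 100.0% of the values were whole multiples, within 0.01, of one step per library, so whole reads were recovered from the values the authors deposited, and depth is their sum. For DR replicate 3 at 48 hpf the step, 1.01, is too near 1 to tell reads from normalised counts, and its reads are assumed. Low-count precision is limited by these depths.

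All tests ran over 17360 of 27731 genes with at least 10 normalised counts in at least 5 libraries. limma 3.58.1 (R 4.3.3, trend) was fitted to log2(value + 1) with 6 group means over 30 libraries, two-sided, with Benjamini-Hochberg adjustment and a threshold of 0.05, for 11 comparisons. Fold changes on this scale understate the change of low genes. The scripts were tested on simulated data.

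Replicates are called biological in the labels. OF and DR libraries of one number and time deviated together from their group means over genes (r of 0.23 to 0.52 in 15 of 15 pairs, and each of 30 libraries correlated best with its partner), so numbers pair the regions within a time. Same-numbered libraries of other times did not (median r of 0.04). Blocked values are given where they change a result, and 13 pairs leave out the 2 doubted pairs. In blocked fits each difference between regions rests on the pairs of its own time. Pairs of other times enter only the shared estimate of the spread.

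Alternatives were other pseudocounts (0.5 and 5), filters, TMM and quantile scaling, array weights, left-out libraries, blocks, and edgeR 4.0.16 and DESeq2 1.42.0 on recovered reads. The 2 rows named rrm2 were summed as an alternative chosen after seeing the data. The 48 members, their 10 roles and all other lists were chosen with earlier results of these data known. Named with every library are, per role, the member with the highest mean and the one with the smallest p at 48 against 32 hpf in OF, plus members called between regions. From each pathway list, up to 4 genes with the smallest adjusted p at 56 against 32 hpf in OF were named. No adjustment over the list alone is given. Names were not found for clspn, donson, cdc25a, incenp and foxd3, and these are not analysed here. Sequences are not used here.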

Additional observations from a re-analysis of the deposited data

Results flagged for a closer look

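Within groups of 5 libraries, 114 group values of the 18 named members and of the sum were examined for a single distant library, a check that flags about 1 in 20 groups by chance, and 3 were flagged. The summed replication genes of the OF library of replicate 5 at 32 hpf stood at 197144 normalised counts, the highest of its group, against 158374 to 168437 in the other 4. The RPA subunit gene rpa3 stood at 17536 in the OF library of replicate 1 at 32 hpf, against 2300.3 to 5261 in the other 4, and at 22842 in its DR partner, against 3097 to 6358. These libraries are the pair with the fewest detected genes.

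The difference between OF and DR moved from 32 to 56 hpf for prim1 by -0.87 (SE 0.18, limma adjusted p = 0.0397) and for uhrf1 by -0.78 (SE 0.16, limma adjusted p = 0.0318), by the interaction term fitted within 13 pairs. At 56 hpf both genes were lower in OF in 5 of 5 pairs. Neither passed without pairs or with all 15 pairs as a block, and leaving out the 2 doubted pairs without a block gave no call either.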

How the results depend on the processing

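The counts of replication genes called against 32 hpf kept within 41 to 46 of 48 rows under every alternative run, and within 44 to 45 (48 hpf, OF), 45 (56 hpf, OF), 41 to 46 (48 hpf, DR) and 44 to 46 (56 hpf, DR) when single libraries were left out. Over all genes, 3603 to 7995 were called in either direction in these fits. In DR orc2 turned from 0.20 to -1.17 (48 hpf) and from 0.29 to -1.09 (56 hpf) with array weights, to -1.47 and -1.35 without both doubted pairs, and to -1.43 and -1.35 without the 32 hpf DR replicate 1, and passed the threshold in each; without single libraries it ran from -1.43 to 0.65 and from -1.35 to 0.74. Single rows of rrm2, never called against 32 hpf, also changed sign; the first row at 48 hpf in OF went from 0.485 to -1.05 in edgeR and -0.94 in DESeq2. No other row changed sign against 32 hpf. The median of all genes depended on the scaling: from 32 to 56 hpf in OF it was 0.42 as deposited, 0.26 with TMM, -0.22 with quantile normalization and 0.12 in edgeR, while the members' medians were -2.16, -2.32, -2.20 and -2.29.

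Between regions at 48 hpf, where no member was called, array weights gave 2, the replicate block 3, the 13 pairs 26, and the 13 pairs with rrm2 summed 25. At 56 hpf tyms was the only member called (44). There 0 members were called with a pseudocount of 0.5 (35), no filter (43), a mean of at least 50 (26), TMM (43), the compared groups alone (85) or edgeR (8). Quantile normalization gave 2 (86), DESeq2 2 (54) and leaving out both doubted pairs 3 (95). Array weights gave 15 (259), the replicate block 35 (390), the 13 pairs 42 (820), and the 13 pairs with rrm2 summed 41 (818). Leaving out single libraries gave 0 to 1 (21 to 59). For the change of the difference from 32 to 56 hpf, the 13 pairs gave 2 (70), with or without rrm2 summed. The tyms call at 56 hpf was lost in 14 settings, with adjusted p from 0.0501 to 0.251, 8 of them without 1 library (OF replicates 1, 2, 4 and 5, DR replicates 2, 3, 4 and 5). The cause was not tested.

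The block on replicate number over times, which the data do not pair, called 45 rows at 48 hpf and 45 at 56 hpf in OF and 44 and 44 in DR. Over all genes it called 6532, 7704, 5326 and 6641 in either direction. Of the values of all 48 rows against 32 hpf and between regions at 48 and 56 hpf, over all settings, 6237 kept their side of the threshold, 155 passed it newly with the same sign and 34 lost it. Beside tyms, the call of pole2 at 48 hpf in DR was lost in 10 settings (adjusted p from 0.0526 to 0.092), 8 of them without 1 library (DR replicates 2, 3, 4 and 5 of 32 hpf, and 1, 2, 3 and 5 of 48 hpf). At that time in DR, orc6 was lost without the 32 hpf replicate 5 or the 48 hpf replicate 1, and prim2 without the latter.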
